A study of Mus musculus with 12 samples.

Results

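The genes described here are those of fatty acid oxidation in mitochondria and peroxisomes, together with PPAR-alpha and genes known as its targets, in the proximal jejunum of mice. The list had 32 genes, and 29 of them were measured, out of 18820 genes on the array that had a probe set paired with that gene alone. Where a gene had several such probe sets, the brightest was used. Of the other 3 listed genes, the only probe set of Acadvl was shared with Dvl2 and those of Cyp4a10 were shared with other Cyp4a genes. Acsl1 had no probe set named here. None of these 3 is given a value. The study asked how chemotherapy injury of the gut lining, known as mucositis, differs in mice that lack TLR2, a receptor for bacterial lipoproteins. It measured 12 mice, 3 in each of 4 groups, with 1 Affymetrix array per mouse. The first group was TLR2 knockout (B6.129-Tlr2tm1Kir/J) given methotrexate, and the second was the same strain left untreated. The third was wild type (C57BL6/J) given methotrexate, and the fourth was wild type left untreated. Methotrexate, an antifolate that blocks DNA synthesis, was injected into the peritoneum at 40 mg per kg of body weight per day for 4 days, and the treated mice were killed on day 7. For the untreated mice the labels record neither an injection nor a day of sampling, so drug, injection and day cannot be told apart. The knockout is a germline allele present in every cell of the animal, and the labels do not say whether the wild-type mice were littermates. RNA came from jejunal tissue with all of its cell types.

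PPAR-alpha is a nuclear receptor that binds fatty acids, pairs with a retinoid X receptor and turns on genes that burn fat. PGC-1 alpha, the product of Ppargc1a, is a coactivator of this receptor and of genes of mitochondrial respiration. Long-chain fatty acids enter mitochondria as carnitine esters, and a repeated cycle of dehydrogenation, hydration, a further dehydrogenation and thiolysis then shortens the chain. Peroxisomes run a related cycle on very long chains and dicarboxylic acids. In the small intestine these genes are most active in absorptive enterocytes of the villus, which take up dietary fat, and fasting or a fatty meal is known to raise many of them.

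Several features of the arrays bear on the values below. The targeted gene Tlr2 read 6.18, 5.46 and 5.28 in treated knockout mice, 4.36, 5.02 and 5.01 in untreated knockout mice, 4.49, 4.65 and 4.51 in treated wild-type mice and 4.37, 4.65 and 4.38 in untreated wild-type mice. The files do not place its probe set inside or outside the deleted stretch, so this signal is no check of the genotype. All 19 enterocyte marker genes measured fell in knockout mice given methotrexate. Their mean log2 signal was 5.83 to 7.83 in those 3 arrays and 10.83 to 11.35 in the other 9, and their summed linear signal was 2610 to 13400 against 46200 to 57600. Of 10 pan-epithelial markers 7 fell and 1 rose (mean 9.20 to 9.71 in treated knockout mice, 9.76 to 10.23 elsewhere). All 10 fibroblast markers rose, as did 8 of 11 macrophage and neutrophil markers and 9 of 10 endothelial markers. Over all genes 16% fell and 18.8% rose. In wild-type mice limma called none of these markers. At an unadjusted p under 0.05, 1 of 19 enterocyte markers and 4 of 11 macrophage and neutrophil markers were lower there. So were 6 of 10 endothelial markers, where 4.96% of all genes were lower. Higher were 1 of 10 pan-epithelial and 2 of 10 fibroblast markers, where 6.72% of all genes were. Pancreatic acinar markers, 13 genes, were high in 7 arrays (mean 12.06 to 12.59) and low in 5 (4.69 to 6.34). Each group had both kinds, with the high ones being replicates 2 and 3 of treated knockout, untreated knockout and untreated wild type, and replicate 2 of treated wild type. Adipocyte markers, 13 genes, averaged 7.01 in replicate 1 of the untreated wild type and 4.22 to 5.58 in the other 11 arrays. The treated knockout arrays were lowest (4.22 to 4.42), so fits with this mean as a covariate cannot fully separate it from that group. The adipocyte markers did not move as 1 in knockout mice. After methotrexate 4 of the 13 fell, 2 rose and 7 were not called, with changes from -5.48 to 1.83 and a median of -0.38. Log2 array signals have no true 0, so no marker is listed as absent. Hepatocyte markers averaged 3.39 to 4.74 and striated muscle markers 3.89 to 4.26, below or near the array medians of 4.37 to 4.56.

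In knockout mice given methotrexate most of these genes were lower than in untreated knockout mice. The 2 regulators, Ppara and Ppargc1a, and the peroxisomal enzyme Ehhadh had the largest falls, each close to 3 on the log2 scale. Of the 29 measured genes 22 fell and 2 rose, the 2 being Acadl and Angptl4, and the 5 not called were Cpt1a, Acot2, Eci2, Pdk4 and Fgf21. Called means an adjusted p under 0.05 from limma with Benjamini-Hochberg adjustment over 18820 genes. By the same rule 34.8% of all genes were called, 18.8% higher and 16% lower. The median change of the 29 was -0.97 and that of all genes -0.02. In whole tissue, fewer cells of a type and less RNA per cell cannot be told apart. The median change of the 19 enterocyte markers was -3.84, a larger fall than that of any of the 29 genes, and the part of enterocyte number in the results was not tested.

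In wild-type mice only Acadl was called, higher after methotrexate, where 0.0744% of all genes were called, 0.0425% higher and 0.0319% lower. The median change of the 29 was 0.33, that of all genes 0.00, and 26 of the 29 changes were above 0, as were 49.5% of those of all genes. In 17 of the 29 all treated arrays lay above all untreated arrays, a pattern that 13.5% of all genes had, and in none did they lie below, which 9.18% of all genes did. At an unadjusted p under 0.05, 14 of the 29 were higher and 0 lower, where 6.72% of all genes were higher and 4.96% lower. The plot of changes in both genotypes shows the 2 effects side by side.

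**Figure D1:**
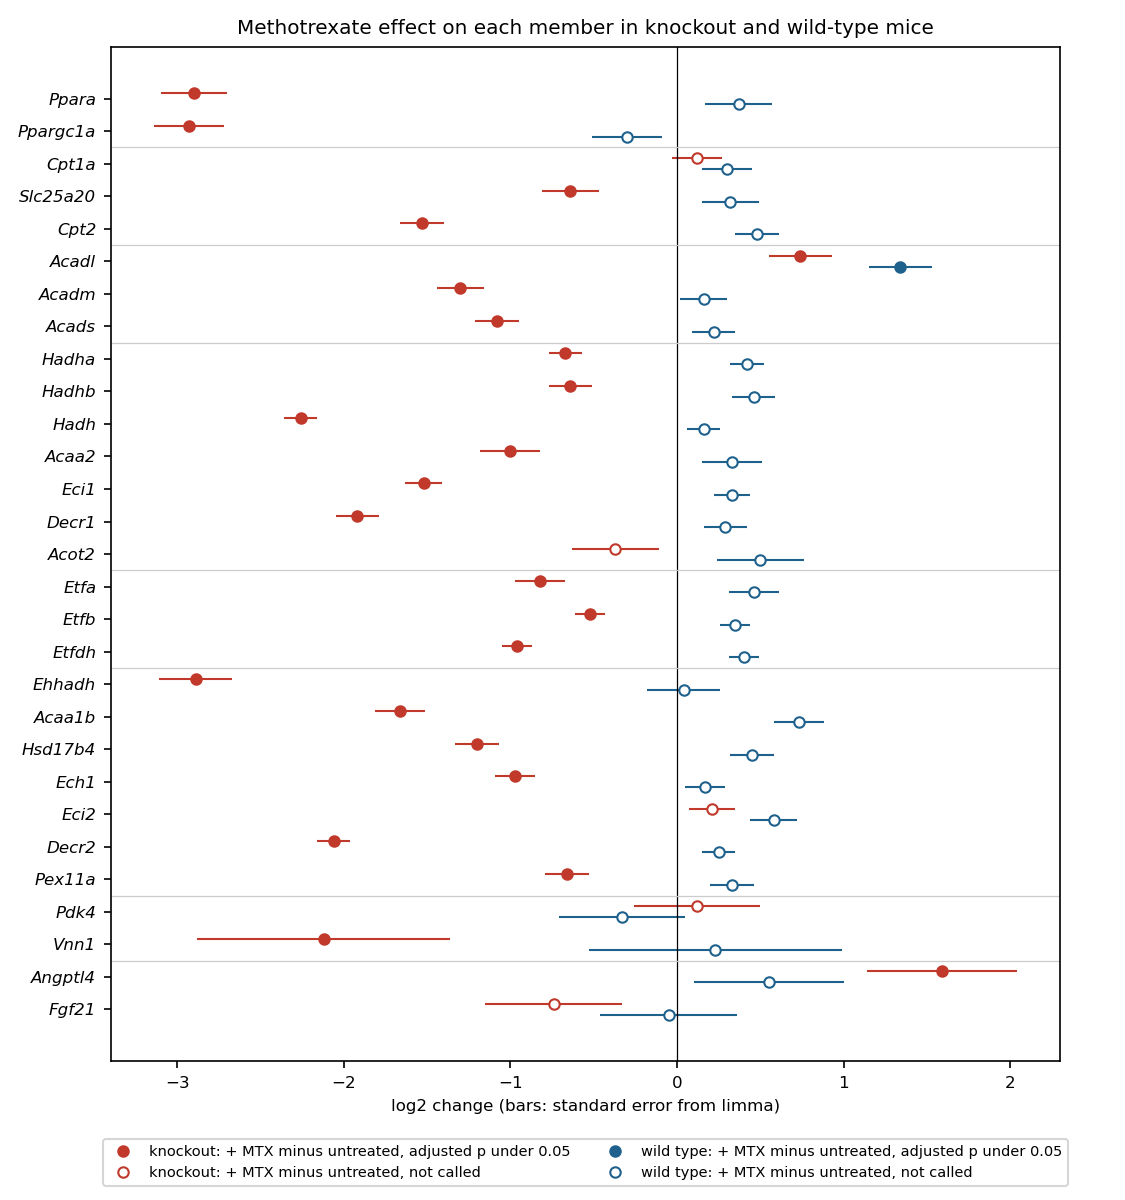
Log2 change after methotrexate for each of the 29 genes (vertical axis, ordered by role) in knockout mice (red) and wild-type mice (blue), each as treated minus untreated, 3 mice per group. Bars are limma standard errors and filled points have an adjusted p under 0.05. The red points run from -2.93 to 1.59, and the blue ones from -0.33 to 1.34, with Acadl as the only filled blue point.

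Among the regulators, Ppara was lowest in every treated knockout array. It read 4.26, 4.89 and 5.10 in treated knockout mice, against 7.84, 7.48 and 7.63 in untreated knockout mice. In wild-type mice it read 8.45, 8.23 and 8.07 after methotrexate, against 7.76, 7.99 and 7.89 without it. The treated and untreated knockout arrays were far apart, while the wild-type arrays lay close together with the treated ones slightly above. Ppara fell by 2.90 ± 0.20 (log2, SE) in knockout mice, a 7.49-fold difference (limma adjusted p = 7.42e-07). Its change in wild-type mice was 0.37 ± 0.20 (adjusted p = 0.479). Between the treated genotypes the difference, knockout minus wild type, was -3.50 ± 0.20 (adjusted p = 1.67e-07), and between the untreated ones it was -0.23 (adjusted p = 0.841).

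Ppargc1a, the gene of the coactivator, read 6.04, 6.20 and 6.19 in treated knockout mice, against 9.38, 8.98 and 8.85 in untreated knockout mice. In wild-type mice it read 9.20, 8.37 and 9.12 after methotrexate, against 9.07, 9.32 and 9.19 without it. The treated knockout arrays were tightly grouped and more than 2 units below every other array, and the wild-type groups overlapped. It fell by 2.93 ± 0.21 in knockout mice (adjusted p = 9.9e-07), and its change in wild-type mice was -0.30 (adjusted p = 0.566). A second, dimmer probe set of Ppargc1a gave changes of -2.70 in knockout and -0.13 in wild-type mice. The low wild-type reading of 8.37 came from replicate 2 of the treated group, the one array of that group with high pancreatic markers. Within the 7 arrays with high pancreatic markers the wild-type change was -0.88, a comparison of 1 treated with 2 untreated mice.

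**Figure D2:**
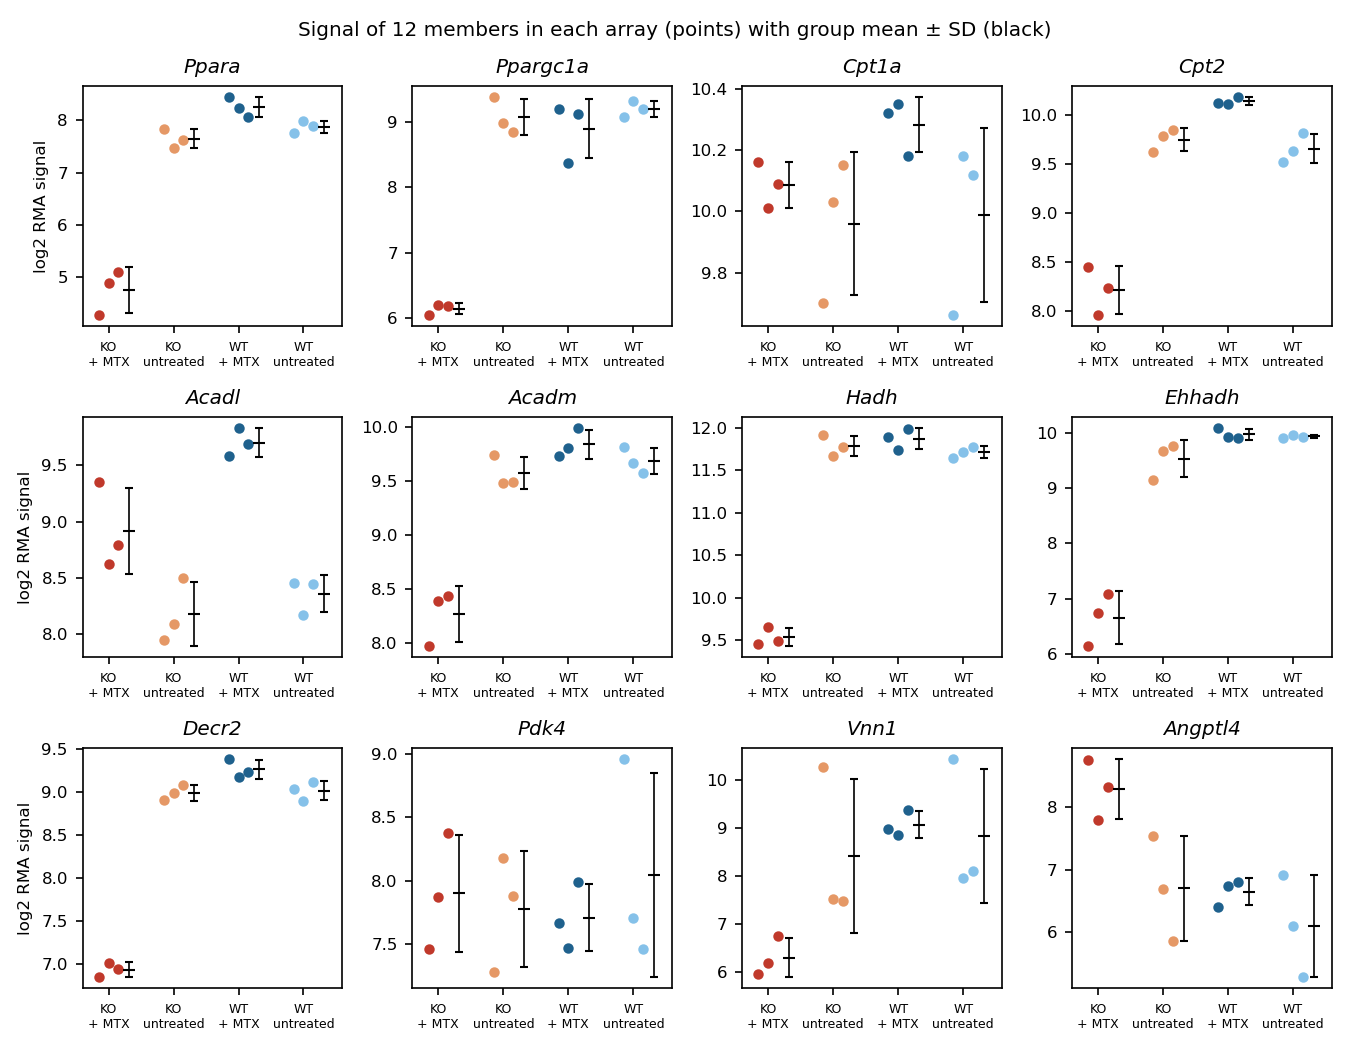
Log2 RMA signal of 12 of the 29 genes in each array (points, 3 mice per group), with the group mean ± SD in black beside them. The vertical axis differs between panels and does not start at 0. Ppara, Ppargc1a, Hadh, Ehhadh and Decr2 have all 3 treated knockout arrays well below the other 9, while Cpt1a and Pdk4 overlap between treated and untreated knockout mice and Angptl4 is highest in treated knockout mice.

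Carnitine palmitoyltransferase 1A, the outer-membrane enzyme that commits long-chain fatty acids to mitochondria, is the product of Cpt1a. Its log2 signal was 10.16, 10.01 and 10.09 in treated knockout mice, against 9.70, 10.03 and 10.15 in untreated knockout mice. Wild-type arrays read 10.32, 10.35 and 10.18 after methotrexate, against 9.66, 10.18 and 10.12 without it. The knockout groups overlapped, and the lowest treated and the highest untreated wild-type array both read 10.18. The change of Cpt1a was 0.12 ± 0.15 in knockout mice (adjusted p = 0.592) and 0.30 ± 0.15 in wild-type mice (adjusted p = 0.463), and no comparison called it. Its signal lay at the 97.8th percentile of all genes.

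The next steps of the same shuttle did fall in knockout mice. Cpt2, the inner-membrane partner that releases the acyl group, read 8.45, 7.96 and 8.24 in treated knockout mice, against 9.62, 9.78 and 9.84 in untreated knockout mice. In wild-type mice Cpt2 read 10.12, 10.11 and 10.18 after methotrexate, against 9.52, 9.63 and 9.81 without it. The treated knockout arrays lay below, and the treated wild-type arrays above, all untreated arrays of their genotype. Cpt2 fell by 1.53 ± 0.13 in knockout mice (adjusted p = 4.29e-06), and its change was 0.48 ± 0.13 in wild-type mice (adjusted p = 0.208). Slc25a20, the carnitine-acylcarnitine carrier between those enzymes, averaged 7.70 ± 0.08 in treated and 8.33 ± 0.06 in untreated knockout mice (SD, n = 3 each). It fell by 0.64 ± 0.17 there (adjusted p = 0.0137, lost at 0.417 with the adipocyte marker mean as a covariate), and its change in wild-type mice was 0.32 (adjusted p = 0.488).

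The acyl-CoA dehydrogenases that open each turn of the cycle, one for each range of chain length, did not move together. Acadl, the long-chain enzyme, read 9.35, 8.62 and 8.79 in treated knockout mice, against 7.95, 8.09 and 8.50 in untreated knockout mice. In wild-type mice Acadl read 9.58, 9.83 and 9.69 after methotrexate, against 8.46, 8.17 and 8.45 without it. In both genotypes every treated array lay above every untreated one, and the wild-type arrays were further apart. Acadl rose by 0.74 ± 0.19 in knockout mice (adjusted p = 0.0118) and by 1.34 ± 0.19 in wild-type mice (adjusted p = 0.0437), which is 2.54-fold. The difference between these 2 effects did not pass the test (-0.61 ± 0.28, adjusted p = 0.15). It did pass with array weights (-0.95, adjusted p = 0.00223) and without treated knockout replicate 1 (-0.82, adjusted p = 0.0191). In the 7 arrays with high pancreatic markers, with 1 treated wild-type mouse, this difference was -1.11. Among the 5 with low ones it was 0.21. After methotrexate Acadl was lower in knockout than in wild-type mice (-0.79 ± 0.19, adjusted p = 0.00747), a call lost with the adipocyte marker mean as a covariate (-0.67, adjusted p = 0.0728). In the 5 arrays with low pancreatic markers that difference was -0.29. The wild-type call was lost in several other settings, with adjusted p of 0.0512 to 0.27. Within the 7 arrays with high pancreatic markers Acadl changed by 0.41 in knockout mice. There its wild-type change was 1.52, from 1 treated and 2 untreated mice. The 5 arrays with low ones hold 1 treated and 1 untreated knockout mouse, whose difference was 1.39, and 2 treated and 1 untreated wild-type mice, with a difference of 1.18, and no p is given for them. The knockout call was lost with only the groups compared (adjusted p = 0.0576).

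Acadm, the medium-chain dehydrogenase, read 7.97, 8.39 and 8.44 in treated knockout mice, against 9.74, 9.48 and 9.49 in untreated knockout mice. The wild-type arrays read 9.73, 9.80 and 9.99 after methotrexate, against 9.81, 9.67 and 9.57 without it. The knockout groups were more than 1 unit apart and the wild-type groups overlapped. Acadm fell by 1.30 ± 0.14 in knockout mice (adjusted p = 2.39e-05), and its change in wild-type mice was 0.16 (adjusted p = 0.654). Acads, the short-chain enzyme, averaged 8.02 ± 0.24 in treated and 9.10 ± 0.06 in untreated knockout mice, a fall of 1.08 ± 0.13 (adjusted p = 4.22e-05). In wild-type mice Acads averaged 9.29 ± 0.15 with and 9.07 ± 0.02 without methotrexate, a change of 0.22 (adjusted p = 0.497). Acadl was thus the only one of the 3 measured dehydrogenases that did not fall.

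Of 7 other mitochondrial enzymes of the cycle 6 fell in knockout mice and Acot2 was not called. Hadh, the short-chain hydroxyacyl-CoA dehydrogenase, had the largest fall among them and the brightest signal of the 29 genes, at the 99.6th percentile. It read 9.45, 9.65 and 9.49 in treated knockout mice, against 11.91, 11.67 and 11.77 in untreated knockout mice. The wild-type arrays read 11.89, 11.74 and 11.99 after methotrexate, against 11.64, 11.72 and 11.78 without it. All 3 treated knockout arrays of Hadh lay far below the others, and the 2 wild-type groups overlapped. Hadh fell by 2.26 ± 0.10 in knockout mice, a 4.78-fold difference (adjusted p = 5.09e-08), and its wild-type change was 0.16 (adjusted p = 0.547).

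Decr1 and Eci1 encode a dienoyl-CoA reductase and an enoyl-CoA isomerase, auxiliary enzymes needed for unsaturated fatty acids. Decr1 read 6.92, 6.60 and 6.56 in treated knockout mice, against 8.62, 8.63 and 8.58 in untreated knockout mice. It read 9.01, 8.80 and 9.27 in treated wild-type mice, against 8.71, 8.67 and 8.81 in untreated wild-type mice. The knockout groups were far apart, and the wild-type groups overlapped by a single array. Decr1 fell by 1.92 ± 0.13 (adjusted p = 8.66e-07) and Eci1 fell by 1.52 ± 0.11 (adjusted p = 1.6e-06) in knockout mice. In wild-type mice their changes were 0.29 (adjusted p = 0.424) and 0.33 (adjusted p = 0.322). Acaa2, the thiolase that closes the cycle, averaged 9.91 ± 0.15 in treated and 10.91 ± 0.44 in untreated knockout mice and fell by 1.0 ± 0.18 (adjusted p = 0.00126). Its wild-type means were 11.40 ± 0.01 with and 11.07 ± 0.14 without methotrexate. Acot2, a thioesterase of the mitochondrial matrix, read 7.02, 8.14 and 7.98 in treated knockout mice, against 8.02, 8.33 and 7.91 in untreated knockout mice, so the groups overlapped (-0.37 ± 0.26, adjusted p = 0.313). Near-identical neighbours of Acot2 in the acyl-CoA thioesterase family may share its probes, so its value is uncertain.

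Hadha and Hadhb encode the alpha and beta subunits of the mitochondrial trifunctional protein, which carries out the later steps on long chains. The 2 genes stand head to head on mouse chromosome 5, with 272 bases between their RefSeq starts (GRCm38.p6), so that 228 of the 250 bases before Hadhb also precede Hadha on the other strand. The sequence is shown because these 2 subunit genes share it and had nearly the same change in knockout mice. The 250 bases before Hadhb lie at chr5:30155003-30155252, plus strand, and capitals mark the shared bases.
Hadhb: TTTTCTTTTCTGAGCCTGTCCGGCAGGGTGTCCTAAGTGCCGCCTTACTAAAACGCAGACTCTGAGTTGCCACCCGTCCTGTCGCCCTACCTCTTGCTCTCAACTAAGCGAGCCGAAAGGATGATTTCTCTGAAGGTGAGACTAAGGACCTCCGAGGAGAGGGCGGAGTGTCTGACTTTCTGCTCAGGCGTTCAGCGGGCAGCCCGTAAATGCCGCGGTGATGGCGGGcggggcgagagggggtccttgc
Hadha averaged 9.58 ± 0.17 in treated and 10.25 ± 0.02 in untreated knockout mice (SD, n = 3 each). Hadhb averaged 8.29 ± 0.16 and 8.93 ± 0.06 in the same groups. Hadha fell by 0.67 ± 0.10 (adjusted p = 0.000282) and Hadhb fell by 0.64 ± 0.13 (adjusted p = 0.00291) in knockout mice. In wild-type mice the changes were 0.42 ± 0.10 for Hadha (adjusted p = 0.169) and 0.46 ± 0.13 for Hadhb (adjusted p = 0.23), and for both genes the treated arrays lay above the untreated ones. Hadhb has a pseudogene on chromosome 2, and its 2 probe sets gave -0.64 and -0.61 in knockout mice, so which copy each reads is uncertain. With the adipocyte marker mean as a covariate the Hadhb call was lost (adjusted p = 0.107).

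All 3 genes that pass electrons from the dehydrogenases to the respiratory chain fell in knockout mice. Etfa and Etfb encode the subunits of the electron transfer flavoprotein, and Etfdh encodes the membrane oxidoreductase that takes its electrons. Etfdh read 7.92, 7.74 and 7.86 in treated knockout mice, against 8.86, 8.80 and 8.75 in untreated knockout mice. It read 9.29, 9.32 and 9.44 in treated wild-type mice, against 9.03, 8.88 and 8.93 in untreated wild-type mice. Neither pair of groups overlapped, and the 2 genotypes lay on opposite sides of their untreated levels. Etfdh fell by 0.96 ± 0.09 (adjusted p = 8.72e-06), Etfa fell by 0.82 ± 0.15 (adjusted p = 0.001) and Etfb fell by 0.52 ± 0.09 (adjusted p = 0.000936). In wild-type mice the changes were 0.40 ± 0.09 for Etfdh (adjusted p = 0.146), 0.46 for Etfa (adjusted p = 0.285) and 0.35 for Etfb (adjusted p = 0.197).

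Of 7 peroxisomal genes 6 fell in knockout mice, and Ehhadh, the bifunctional hydratase and dehydrogenase, fell most. Ehhadh read 6.13, 6.73 and 7.09 in treated knockout mice, against 9.16, 9.68 and 9.78 in untreated knockout mice. In wild-type mice it read 10.10, 9.94 and 9.92 after methotrexate, against 9.92, 9.98 and 9.94 without it. The treated knockout arrays were more than 2 units below the rest, and the wild-type arrays of both groups lay within a narrow band. Ehhadh fell by 2.89 ± 0.22 in knockout mice (adjusted p = 1.72e-06), and its wild-type change was 0.04 (adjusted p = 0.95). Between treated genotypes the difference was -3.34 (adjusted p = 4.87e-07).

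Decr2, the peroxisomal dienoyl-CoA reductase, read 6.85, 7.02 and 6.95 in treated knockout mice, against 8.91, 8.99 and 9.09 in untreated knockout mice. Treated wild-type arrays read 9.39, 9.18 and 9.24 for Decr2, against 9.04, 8.90 and 9.12 in untreated ones. Decr2 in treated knockout arrays lay more than 1.5 units below all others, and the treated wild-type arrays lay just above the untreated ones. Decr2 fell by 2.06 ± 0.10 (adjusted p = 7.56e-08), and its wild-type change was 0.25 (adjusted p = 0.387). Acaa1b, a peroxisomal thiolase, read 4.17, 3.83 and 3.89 in treated knockout mice, against 5.57, 5.90 and 5.40 in untreated knockout mice. It read 6.61, 6.85 and 6.86 in treated wild-type mice, against 6.06, 5.88 and 6.18 in untreated wild-type mice. In treated knockout mice Acaa1b was below the median signal of every array, and the wild-type arrays did not overlap. Acaa1b fell by 1.66 ± 0.15 in knockout mice (adjusted p = 6.14e-06), and its wild-type change of 0.73 ± 0.15 did not pass (adjusted p = 0.116). The near copy Acaa1a fell by 1.77 ± 0.13 in knockout mice (adjusted p = 1.12e-06), and probes of the 2 thiolases may read each other.

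The other peroxisomal genes had smaller changes. Hsd17b4, the second bifunctional enzyme of this organelle, averaged 7.70 ± 0.18 in treated and 8.91 ± 0.08 in untreated knockout mice and fell by 1.20 ± 0.13 (adjusted p = 1.87e-05). Ech1, a dienoyl-CoA isomerase, fell by 0.97 ± 0.12 (adjusted p = 6.59e-05). Pex11a, a membrane protein of peroxisome division, fell by 0.66 ± 0.13 (adjusted p = 0.00181). Eci2, an enoyl-CoA isomerase, read 7.76, 7.75 and 7.39 in treated knockout mice, against 7.54, 7.31 and 7.41 in untreated knockout mice, and the groups overlapped (0.21 ± 0.14, adjusted p = 0.294). In wild-type mice Eci2 read 7.76, 8.15 and 7.98 after methotrexate, against 7.55, 7.32 and 7.26 without it. All treated wild-type arrays of Eci2 lay above the untreated ones, with a change of 0.58 ± 0.14 (adjusted p = 0.169).

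The remaining target genes varied widely between mice of 1 group. Pdk4, the kinase that shuts off pyruvate oxidation when fat is burned, read 7.46, 7.87 and 8.38 in treated knockout mice, against 7.28, 8.18 and 7.88 in untreated knockout mice. It read 7.67, 7.47 and 7.99 in treated wild-type mice, against 8.96, 7.71 and 7.46 in untreated wild-type mice. All groups overlapped, and the one high reading of 8.96 was from the untreated wild-type mouse with high adipocyte markers. Pdk4 was called in no comparison, with changes of 0.12 ± 0.38 in knockout mice (adjusted p = 0.844) and -0.33 ± 0.38 in wild-type mice (adjusted p = 0.731).

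Vnn1, a pantetheinase of the enterocyte surface, read 5.95, 6.19 and 6.75 in treated knockout mice, against 10.27, 7.51 and 7.48 in untreated knockout mice. In wild-type mice Vnn1 read 8.97, 8.85 and 9.38 after methotrexate, against 10.44, 7.95 and 8.11 without it. Replicate 1 of both untreated groups was more than 2 units above its group, and both of those arrays had low pancreatic markers. Vnn1 fell by 2.12 ± 0.76 in knockout mice, just inside the threshold (adjusted p = 0.0499), and its wild-type change was 0.23 (adjusted p = 0.921). Within the 7 arrays with high pancreatic markers the knockout change of Vnn1 was -1.02. In the 5 with low ones the single treated and the single untreated knockout mouse differed by -4.32. The call was lost in many other settings, with adjusted p of 0.0504 to 0.698, among them the fits without any 1 of the treated knockout mice or without untreated knockout replicate 1. With the pancreatic acinar marker mean as a covariate the Vnn1 call stayed. The part of pancreatic RNA in these values was not tested beyond that fit.

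Of the secreted products, Angptl4, an inhibitor of lipoprotein lipase, went the other way. It read 8.76, 7.80 and 8.32 in treated knockout mice, against 7.54, 6.70 and 5.87 in untreated knockout mice. It read 6.40, 6.74 and 6.81 in treated wild-type mice, against 6.92, 6.10 and 5.28 in untreated wild-type mice. The treated knockout arrays lay above all others, and untreated mice of both genotypes spread over more than 1.5 units. Angptl4 rose by 1.59 ± 0.45 in knockout mice (adjusted p = 0.0173), and its wild-type change was 0.55 (adjusted p = 0.625). The call was lost without treated knockout replicate 1 (adjusted p = 0.0571) or untreated knockout replicate 3 (adjusted p = 0.0725). Between treated genotypes Angptl4 was higher in knockout mice by 1.64 ± 0.45 (adjusted p = 0.0133).

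Fgf21, a hormone that PPAR-alpha induces in fasting liver, was dim, at percentile 27.2 of all genes. It read 2.79, 3.03 and 4.15 in treated knockout mice, against 3.07, 4.38 and 4.74 in untreated knockout mice. It read 3.09, 2.80 and 3.06 in treated wild-type mice, against 2.97, 2.84 and 3.29 in untreated wild-type mice. Fgf21 exceeded 4 in 3 arrays, all from knockout mice with high pancreatic markers. With all arrays it was called in no comparison, with a change of -0.74 ± 0.41 in knockout mice (adjusted p = 0.203) and an untreated difference, knockout minus wild type, of 1.03 ± 0.41 (adjusted p = 0.786). The knockout change of Fgf21 was called without treated replicate 3 (-1.16, adjusted p = 0.0425), without untreated replicate 1 (-1.24, adjusted p = 0.0159) and with array weights (-1.13, adjusted p = 0.00618).

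**Figure D3:**
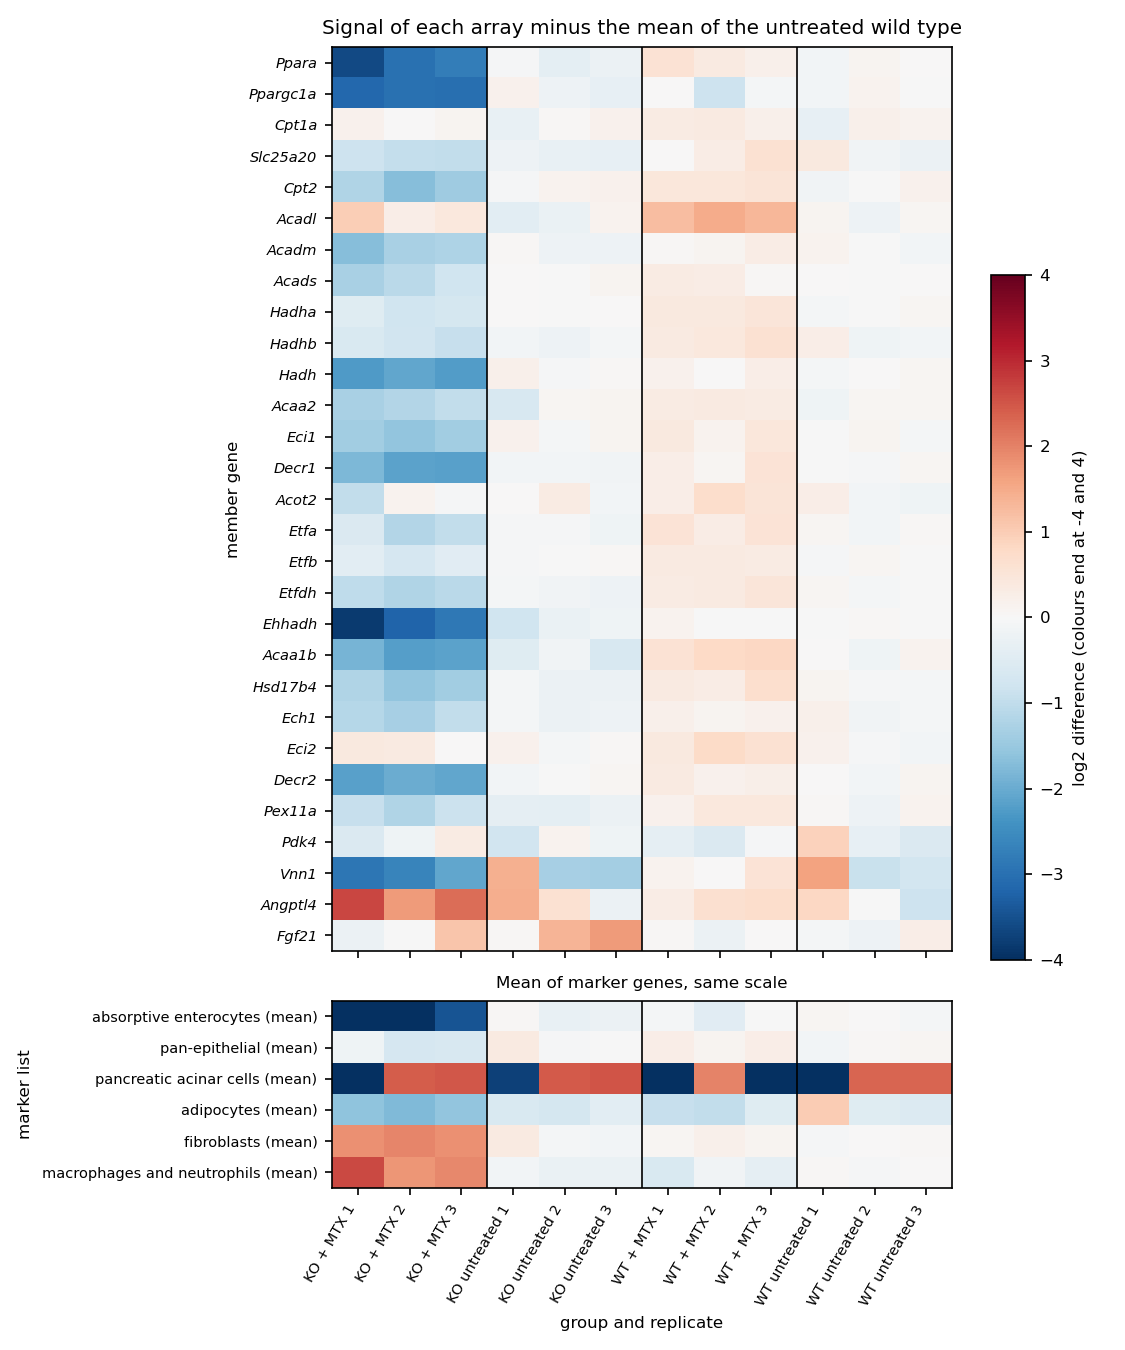
Signal of each of the 29 genes (upper rows) and the mean of 6 marker lists (lower rows) in each of the 12 arrays, as the log2 difference from the mean of the untreated wild type, with blue for lower and red for higher. Columns are arrays in the order treated knockout, untreated knockout, treated wild type and untreated wild type, and colours end at -4 and 4. The 3 treated knockout columns are blue for most genes and for enterocyte markers, whose mean was 5.83 to 7.83 there, while pancreatic markers are high in 7 columns spread over all 4 groups.

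The order of the 4 groups was alike for most of the 29 genes. Treated knockout mice had the lowest group mean for 23 of the 29, where 39.6% of all genes had it lowest. Treated wild-type mice had the highest for 25 of the 29, where 21.6% of all genes had it highest. Both held for 22 of the 29 and for 14.7% of all genes. For 22 of the 29 every treated knockout array lay below each of the other 9 arrays, as it did for 14.7% of all genes. The exceptions to this last pattern were Cpt1a, Acadl, Acot2, Eci2, Pdk4, Angptl4 and Fgf21.

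After methotrexate, 24 of the 29 were lower in knockout than in wild-type mice and Angptl4 was higher, where 36.9% of all genes were called, 20.2% higher and 16.8% lower. The median difference was -1.37, against 0.00 over all genes. The 3 largest were in Ppara (-3.50), Ehhadh (-3.34) and Acaa1b (-2.81 ± 0.15, adjusted p = 1.19e-07). Vnn1 was lower by a log2 difference of -2.77 ± 0.76 (adjusted p = 0.0133), and this call was lost with the adipocyte marker mean as a covariate (-1.56, adjusted p = 0.19). Acot2, not called for methotrexate in either genotype, differed by -0.80 ± 0.26 (adjusted p = 0.0309). The Acot2 call was lost without treated knockout replicate 1 (-0.46, adjusted p = 0.0728) or treated wild-type replicate 2 or 3, and in 4 other settings with no fold minimum, with adjusted p of 0.0655 to 0.187. The 4 genes not called were Cpt1a (-0.20, adjusted p = 0.369), Eci2 (-0.33, adjusted p = 0.0879), Pdk4 (0.19, adjusted p = 0.764) and Fgf21 (0.34, adjusted p = 0.602). This comparison shares its treated arrays with the 2 methotrexate effects, so the counts are not independent of one another.

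Between untreated knockout and untreated wild-type mice limma called 0 of the 29, where 0.0106% of all genes were called, 0.00531% in each direction. At an unadjusted p under 0.05, 1 was higher, Fgf21, where 3.73% of all genes were, and 2 were lower, where 2.46% were. Those 2 were Acaa1b (-0.42, adjusted p = 0.786) and Pex11a (-0.33, adjusted p = 0.786). The median difference of the 29 was -0.12. A p above the threshold with 3 mice per group does not show that the untreated genotypes are alike.

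The methotrexate effect differed between the genotypes for 21 of the 29 by the interaction term, all 21 more negative in knockout mice, where 23.8% of all genes were called, 11.8% more positive and 12% more negative. The median interaction was -1.30. It was -3.27 ± 0.28 for Ppara (adjusted p = 1.11e-05), -2.93 for Ehhadh (adjusted p = 4.99e-05) and -2.63 ± 0.29 for Ppargc1a (adjusted p = 6.56e-05). It was smallest among the called genes for Etfb (-0.87, adjusted p = 0.00049) and Slc25a20 (-0.96 ± 0.25, adjusted p = 0.0142). The 8 genes without a call were Cpt1a, Acadl, Acot2, Eci2, Pdk4, Vnn1, Angptl4 and Fgf21. With array weights Vnn1 (-2.53, adjusted p = 0.0102), Acot2 (-0.70, adjusted p = 0.0326) and Fgf21 (-1.25, adjusted p = 0.0232) were called, as was Acadl. Vnn1 was also called without untreated wild-type replicate 1 (-3.15, adjusted p = 0.0345). In the 7 arrays with high pancreatic markers the interaction was -1.84 for Vnn1 and -0.92 for Acot2. In the 5 with low ones it was -3.06 and -1.12.

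Of 130 other genes listed for the pathway 116 were measured. In knockout mice 57 of them fell, 14 rose and 45 were not called, where 16% of all genes fell and 18.8% rose. The median change of the 116 was -0.65. In wild-type mice limma called none of the 116. At an unadjusted p under 0.05, 13 were higher and 5 lower, where 6.72% of all genes were higher and 4.96% lower. Of 24 other peroxisomal genes 18 fell and 1 rose, with a median of -1.28. Slc27a2, a very long-chain acyl-CoA synthetase of peroxisomes and endoplasmic reticulum, read 3.01, 3.85 and 4.53 in treated knockout mice, against 9.33, 9.75 and 9.67 in untreated knockout mice. It read 10.26, 9.78 and 10.17 in treated wild-type mice, against 10.43, 10.01 and 10.09 in untreated wild-type mice. Slc27a2 was near or below the array median in treated knockout mice and bright elsewhere, and it fell by 5.79 ± 0.31 (adjusted p = 1.29e-07). Ephx2, soluble epoxide hydrolase, fell by 4.75 ± 0.24 (adjusted p = 7.6e-08). Cat, the catalase that removes peroxide made by peroxisomal oxidases, fell by 2.59 ± 0.14 (adjusted p = 1.86e-07).

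Of 29 other genes listed under mitochondrial fatty acid oxidation 15 fell and 3 rose, where 16% of all genes fell and 18.8% rose. The median of the 29 was -0.68. This list does not place each product in mitochondria. Acad11, a dehydrogenase of long-chain acyl-CoA, fell by 2.27 ± 0.17 (adjusted p = 1.28e-06). Acsl4, an acyl-CoA synthetase that prefers arachidonic acid, read 8.80, 8.95 and 8.96 in treated knockout mice, against 6.08, 5.99 and 5.91 in untreated knockout mice. In wild-type mice Acsl4 read 6.0, 6.17 and 5.78 after methotrexate, against 5.74, 5.94 and 6.02 without it. Only the treated knockout arrays were high, and Acsl4 rose by 2.91 ± 0.12 (adjusted p = 2.52e-08). Cpt1c, the brain-type relative of Cpt1a, rose by 1.55 ± 0.09 (adjusted p = 3.56e-07) in the same arrays in which fibroblast and macrophage markers were high, and the part of those cells was not tested. Of 4 ketone body genes 2 fell, Acat1, a thiolase, by a change of -1.37 ± 0.11 (adjusted p = 3.16e-06), and Bdh1, hydroxybutyrate dehydrogenase, by -1.05 ± 0.15 (adjusted p = 0.000197).

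**Figure D4:**
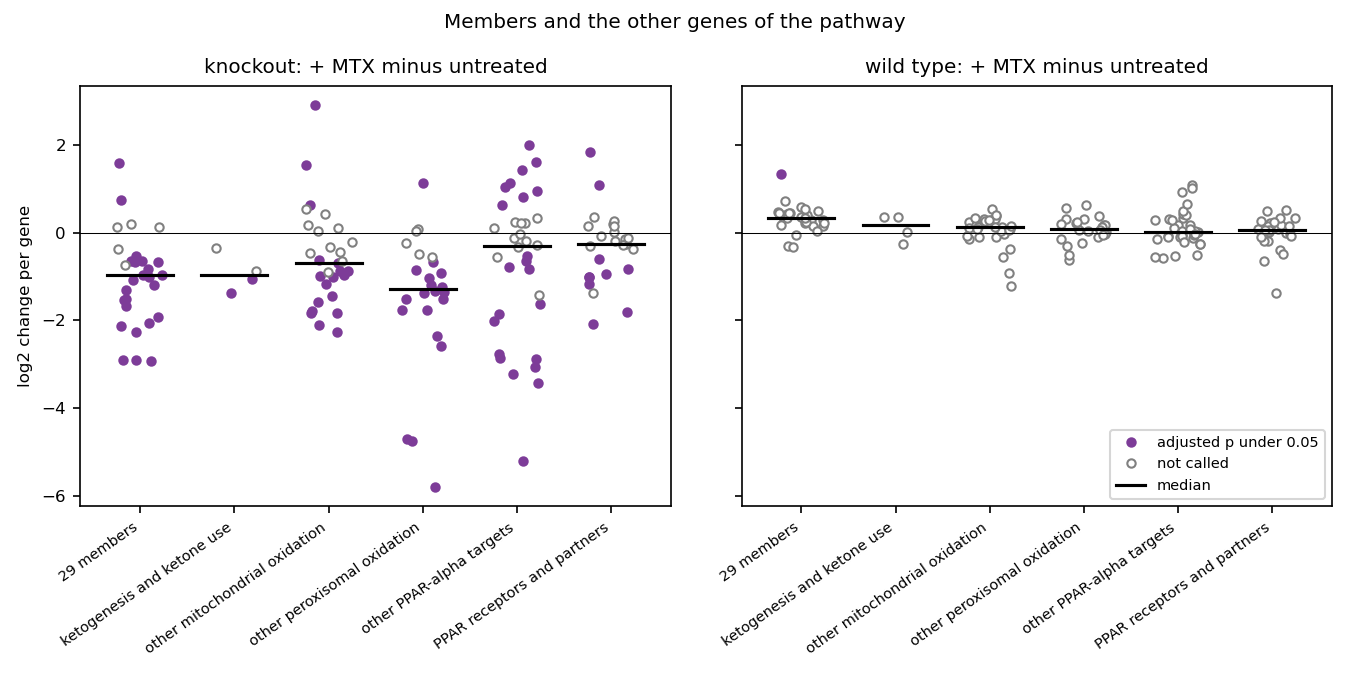
Log2 change after methotrexate, treated minus untreated, of the 29 genes and of the other genes of the pathway in 5 lists (horizontal axis), in knockout mice (left) and wild-type mice (right). Each point is a gene, filled where the adjusted p is under 0.05, and black lines are medians, with sideways scatter added for legibility. In knockout mice the median of each list is below 0, from -1.28 for other peroxisomal genes to -0.26 for receptors and partners, and in wild-type mice only Acadl is filled.

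Other PPAR-alpha targets were the most mixed list, with 14 of 34 lower and 8 higher in knockout mice and a median of -0.30. Over all genes 16% were lower and 18.8% higher. Retsat, a retinol saturase, fell by 2.87 ± 0.13 (adjusted p = 4.52e-08), Gpd1, glycerol phosphate dehydrogenase, fell by 2.85 ± 0.18 (adjusted p = 4.36e-07), and Slc27a4, a fatty acid transport protein of enterocytes, fell by 3.23 ± 0.23 (adjusted p = 1.12e-06). Cyp4a14, a fatty acid omega-hydroxylase and a liver target of PPAR-alpha, read 2.60 to 2.85 in treated and 2.61 to 3.03 in untreated knockout mice, below every array median, and was not called (-0.13 ± 0.21, adjusted p = 0.695). Of 25 receptors, partners and coregulators 8 fell and 2 rose, beside the same shares of all genes. Esrrg fell by 2.07 ± 0.15 (adjusted p = 1.36e-06) and Esrra fell by 1.80 ± 0.20 (adjusted p = 2.84e-05), both being estrogen-related receptors that work with PGC-1 alpha. Nrip1, a corepressor of nuclear receptors, fell by 0.60 ± 0.09 (adjusted p = 0.000254). The related receptor genes had changes of -1.01 ± 0.20 for Ppard (adjusted p = 0.00216) and -1.0 ± 0.33 for Pparg (adjusted p = 0.0363). In wild-type mice their changes were -0.64 for Ppard (adjusted p = 0.273) and -0.39 for Pparg (adjusted p = 0.638), and the interaction called neither (adjusted p = 0.431 for both). The Pparg call was lost without any 1 treated knockout mouse and without untreated knockout replicate 2 or 3 (adjusted p 0.0598 to 0.135).

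The receptor pair binds a direct repeat of a short element with a single base between the copies, and promoters were searched for it on both strands in the 250 bases before and 50 after each RefSeq gene start (GRCm38.p6). The exact repeat, AGGTCA followed by any base N and AGGTCA again, was in 0 of the 24 measured genes that have a promoter in the table and in 0.0396% of 32851 promoters. The looser form, with AGGNCA in place of each AGGTCA so that it includes the exact one, was also in 0 of the 24, in 1 of 98 other genes of the pathway and in 0.381% of all promoters. At shares this low, 0 of 24 does not set these genes apart, and bases outside this window were not searched. No promoter was in the table for Decr1, Acaa2, Vnn1, Hsd17b4 and Angptl4. The single match was before Fabp1, the liver-type fatty acid binding protein of enterocytes, and it is shown as the one pathway promoter with the motif. The 250 bases before Fabp1 lie at chr6:71199629-71199878, plus strand, and capitals mark the match, which reads as the motif on the other strand and begins 67 bases before the start.
Fabp1: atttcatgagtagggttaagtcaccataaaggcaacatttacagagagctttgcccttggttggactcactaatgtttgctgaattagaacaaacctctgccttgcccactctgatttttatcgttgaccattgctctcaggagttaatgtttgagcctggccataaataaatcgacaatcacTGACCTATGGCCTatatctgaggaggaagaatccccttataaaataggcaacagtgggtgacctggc
Fabp1 read 8.35, 7.46 and 9.04 in treated knockout mice, against 11.16, 10.91 and 11.09 in untreated knockout mice. It read 11.61, 11.60 and 11.89 in treated wild-type mice, against 11.65, 11.21 and 11.26 in untreated wild-type mice. Its treated knockout arrays lay below all others, and Fabp1 fell by 2.77 ± 0.31 there (adjusted p = 2.87e-05). A match is a description of letters in this window and not a binding site.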

How the data were processed

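Total RNA from the proximal jejunum of 12 mice was labelled with a whole-transcript kit and put on 1 Affymetrix array per mouse, per the labels' protocols. The values are log2 signals per probe set that the authors made with RMA, per the submitters' processing notes, which name no version. The array's annotation build is not given in the sources used here. No further scaling was applied to the deposited log2 values. Of 35556 probe sets, 21218 had 1 gene symbol, 1881 had several and 12457 had none in the platform annotation. This gave 18820 genes, and the brightest probe set was kept for the 1386 genes with more than 1. Arrays give no read depth, and their number limits the precision.

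Differences were tested by lmFit and eBayes of limma 3.58.1 (R 4.3.3), with all 12 arrays in 1 fit, a mean per group and 8 residual degrees of freedom. The p-values were adjusted by Benjamini-Hochberg over all 18820 genes, and genes were called under 0.05 with no fold minimum. Values after ± are limma standard errors for changes and SDs for means. The interaction subtracts the wild-type methotrexate effect from the knockout one. The members and lists were chosen with earlier results of these data known. Named in full were the regulators, 5 further genes whatever their values, and the 3 largest changes per comparison. Of the other pathway genes, the 3 with the smallest p per list and a few set genes were named, some of which are not reported here. Deviations from the group means correlated between arrays of the same replicate number at 0.50, 0.29 and 0.43 in knockout mice. Between untreated genotypes they correlated at 0.67, 0.50 and 0.50. The replicate numbers did not pair in wild-type mice (0.29, 0.53 and -0.49) or between treated genotypes (0.12, 0.25 and -0.15). The labels do not say what the numbers stand for. The main fit used no pairing, and a replicate block over all 12 arrays was run as an alternative. Alternatives were a fold minimum, a filter on dim genes, other rules for probe sets, quantile normalisation, median centring, only the groups compared, the replicate block, pancreatic or adipocyte marker means as covariates, array weights, a trended robust variance and fits without each array in turn. The fit was tested on simulated data. Promoter sequences are from RefSeq.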

Additional observations from a re-analysis of the deposited data

Results flagged for a closer look

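The methotrexate effect differed between genotypes by the interaction term of limma (knockout effect minus wild-type effect, adjusted p under 0.05) for 21 of the 29 genes, all more negative in knockout mice, against 12% of all genes more negative. For the regulators it was -3.27 for Ppara and -2.63 for Ppargc1a. In the carnitine shuttle it was -0.96 for Slc25a20 and -2.01 for Cpt2. Among mitochondrial enzymes it was -1.46 for Acadm, -1.30 for Acads, -1.09 for Hadha, -1.10 for Hadhb, -2.41 for Hadh, -1.33 for Acaa2, -1.85 for Eci1 and -2.21 for Decr1. Electron transfer genes had -1.28 for Etfa, -0.87 for Etfb and -1.36 for Etfdh. Peroxisomal genes had -2.93 for Ehhadh, -2.39 for Acaa1b, -1.65 for Hsd17b4, -1.14 for Ech1, -2.30 for Decr2 and -0.99 for Pex11a. Enterocyte markers fell in the same treated knockout arrays, and their part in these values was not tested.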

How the results depend on the processing

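In no setting run did any of the 29 genes go against its direction in the main fit where either fit called it. Changes called in neither fit were not compared. For the other pathway genes named in the main results this was checked in the knockout methotrexate effect alone, where none reversed. The PPAR-alpha targets named under other observations were run in the main fit only. In knockout mice 24 of the 29 genes were called, 22 to 24 when each array was left out in turn, 14 with a log2 fold minimum of 1 and 21 to 26 in the other planned settings. Between treated genotypes 25 were called, 24 to 26 with an array left out and 22 to 25 in the other planned settings. The interaction called 21, 21 to 22 with an array left out and 18 to 25 in the other planned settings. Between untreated genotypes 0 were called, 0 with any array left out, and 1 with array weights, Fgf21 (1.44, adjusted p = 0.0259).

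The wild-type effect of methotrexate depended on the setting. Its 1 call, Acadl, became 0 with all probe sets tested, with arrays centred on their median, with only the groups compared, with the adipocyte marker mean as a covariate and in 10 of the 12 fits without 1 array. The range over those 12 fits was 0 to 1, and the call stayed without treated or untreated knockout replicate 1. With array weights 15 were called. Over all genes the wild-type count was 14, but 1819 with array weights, 97 without treated knockout replicate 1 and 0 in several settings; the cause was not tested.

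With the replicate number as a block the counts were 24 in knockout mice, 0 in wild-type mice (Acadl, adjusted p = 0.081), 25 between treated genotypes, 0 between untreated ones and 21 for the interaction.

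Chosen after seeing the data, the 7 arrays with high pancreatic markers gave 23 in knockout mice, 4 in wild-type mice (3 higher, 1 lower), 26 between treated genotypes and 24 for the interaction, where 7505, 836, 6887 and 4909 of all 18820 genes were called. For the 5 arrays with low ones only changes are given, with no calls. The median change of the genes described here was -1.0 in knockout mice and 0.3 in wild-type mice. It was -1.45 between treated genotypes and -1.12 for the interaction. Slc25a20, Hadha, Hadhb, Etfa, Etfb and Pex11a fell in knockout mice with all arrays. In these 5 arrays their changes were -0.62, -0.50, -0.50, -0.54, -0.39 and -0.54. These 5 arrays hold 1 treated knockout, 1 untreated knockout and 1 untreated wild-type mouse. Their spread therefore comes from the treated wild-type mice alone. Among the 7 arrays the treated wild type holds 1 array, assumed to vary like the other groups. With only the groups compared, the interaction was not run because it uses all groups.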

Other observations

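Of the 34 other PPAR-alpha targets 8 rose in knockout mice after methotrexate, where 18.8% of all genes rose. These 8 are named for having risen. Hilpda, an inhibitor of lipolysis, read 6.0, 5.93 and 5.79 in treated knockout mice, against 3.79, 3.89 and 4.05 in untreated knockout mice. It read 3.50, 4.05 and 3.49 in treated wild-type mice, against 3.38, 3.59 and 3.98 in untreated wild-type mice. The treated knockout arrays of Hilpda were above all others, and it rose by 1.99 ± 0.18 (limma adjusted p = 6.18e-06). Plin4 rose by 1.62 ± 0.25 (adjusted p = 0.000383), Acot1 by 1.44 ± 0.27 (adjusted p = 0.00151) and G0s2 by 1.13 ± 0.18 (adjusted p = 0.000462). Acot1 and Acot2 are of the same thioesterase family and may share probes, so the value of Acot1 is uncertain too. Plin2 rose by 1.05 ± 0.16 (adjusted p = 0.000293), Lpin1 by 0.96 ± 0.27 (adjusted p = 0.0155), Mgll by 0.81 ± 0.25 (adjusted p = 0.0242) and Txnip by 0.64 ± 0.21 (adjusted p = 0.0365). In the same list Cidec fell by 2.02 ± 0.38 (adjusted p = 0.0016), and Plin5 (-0.04) and Pnpla2 (0.10) were not called. In wild-type mice none of the 8 was called, with changes of 0.03 for Hilpda, -0.50 for Plin4, 1.01 for Acot1, 0.40 for G0s2, 0.31 for Plin2, 0.30 for Lpin1, -0.56 for Mgll and -0.06 for Txnip.

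Pparg read 7.60, 7.87 and 7.66 in treated knockout mice, with high pancreatic markers in replicates 2 and 3. It read 7.91 in replicate 1 and 9.10 and 9.13 in replicates 2 and 3 of the untreated knockout. In wild-type mice Pparg read 8.34, 8.59 and 8.23 after methotrexate, against 8.10, 9.12 and 9.12 without it. In both untreated groups the low array was the one with low pancreatic markers.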
